A study of Mus musculus with 6 samples.

Results

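The genes of the cytosolic ribosomal proteins were followed through single-cell RNA sequencing of inguinal white adipose tissue (iWAT), the subcutaneous fat depot of the mouse groin. Members were chosen by symbol: Rpl or Rps followed by a number, with the paralogs whose symbols end in x, a or l, and Rplp0, Rplp1, Rplp2 and Rpsa, while pseudogenes were left out. This gave 83 of the 31053 genes counted, 51 of the large subunit and 32 of the small subunit, on 19 chromosomes. The samples were stromal vascular cells of iWAT from male C57BL/6 mice, depleted of CD45+ immune cells, in 6 libraries. Young (9 weeks) and aged (57 weeks) mice were kept at thermoneutrality (TN), which was 30 °C, or in the cold at 6 °C. The cold lasted either 3 days (3D cold) or 14 days (14D cold), and there was 1 library for each age and temperature. The number of mice behind a library is not stated in the sources used here, and neither is which libraries came from which of the 2 C57BL/6 substrains that the study obtained. No library has a replicate, so age was compared as 3 aged against 3 young libraries over the temperatures, and each cold group as 1 young and 1 aged library against the same at TN.

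A ribosome of the cytosol holds one copy of most of its proteins, which are bound to the ribosomal RNA of a large and a small subunit and are made in nearly equal amounts by every nucleated cell. Their mRNAs are among the most abundant of a cell. They typically begin with an uninterrupted run of C and T bases, the 5′ terminal oligopyrimidine or TOP tract, through which the growth-sensing kinase complex mTORC1 controls their translation, in part by way of the protein Larp1. Members differ in what else they do: the stalk proteins recruit translation factors, Rpl5 and Rpl11 bind Mdm2 and so stabilise p53 when assembly fails, and some members have a second gene copy that can take their place.

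Transcripts were counted from their 3′ ends with unique molecular identifiers (UMIs), so that a transcript copied many times in the library is counted once, and libraries held between 52068837 and 88508349 UMIs. To compare cells at equal depth, each cell was thinned at random to 2000 UMIs and shallower cells were left out, which left 53037 cells. The Aged 14D cold library stood apart, with a median of 2588 UMIs per cell against 6232 to 8954 in the others, and lost 3970 cells to this step against 319 in the Aged TN library and 0 in the other 4. Cells were gated with marker genes, none of them a ribosomal protein gene, into 18389 Dpp4+ fibroblast-like cells (a progenitor type of the fibrous septa), 20551 Icam1+ preadipocyte-like cells (committed towards adipocytes), 1315 Cd142+ fibroblast-like cells, 3282 endothelial-like cells, 568 smooth muscle and pericyte-like cells (SMC/pericyte-like), 93 Schwann-like and 191 immune-like cells. The gate found what it was set to find: the 10 markers of Dpp4+ fibroblasts summed to between 7465 and 9704 CPM (UMIs scaled to a common library total) in that class and to between 210.3 and 681.4 in Icam1+ preadipocyte-like cells. Another 8648 cells met no gate. Of 67565 distinct barcodes, 524 occurred in more than 1 library, at most 44 in any pair.

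Ribosomal protein mRNAs took a share of each cell class's UMIs that kept nearly the same order in every library. Of the 5 classes tested the share was highest in Dpp4+ fibroblast-like cells, at 16.7%, 14.9% and 16.3% in the young TN, 3D cold and 14D cold libraries and 17.6%, 15.7% and 16.5% in the aged ones. In Icam1+ preadipocyte-like cells it was 11.4%, 11.3% and 12.02% in young and 10.6%, 11.7% and 12.1% in aged libraries, below the Dpp4+ class in 6 of 6 libraries. Cd142+ fibroblast-like cells lay between these classes in 6 of 6 libraries, at 13.5%, 12.7% and 12.6% in young and 14.7%, 15.1% and 15.1% in aged libraries.

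Endothelial-like cells were at 10.6%, 10.7% and 10.1% in young and 11.8%, 10.6% and 10.0% in aged libraries, under the Icam1+ class in 5 of 6 libraries, the exception being Aged TN. SMC/pericyte-like cells held 8.89%, 8.50% and 8.27% in young and 9.32%, 8.96% and 9.09% in aged libraries, under the endothelial class in 6 of 6. Schwann-like cells were the lowest, between 5.27% and 5.85%, under the SMC/pericyte class in 6 of 6 libraries. Immune-like cells, of which a library held only 19 to 42, were above the Dpp4+ class in 6 of 6 libraries, from 18.7% to 28.7%. Counting error alone was small. Its exact binomial 95% interval reached for example from 16.70% to 16.76% in the Dpp4+ class and from 13.36% to 13.58% in the Cd142+ class of the Young TN library. Single cells spread more widely: in that library the cell at the 10th percentile of the Dpp4+ class was at 12.5% and that at the 90th at 20.9%, against 7.95% and 15.2% in the Icam1+ class. These are levels of RNA relative to the rest of a cell's RNA, and a larger ribosomal share cannot be told apart from less of the other RNA.

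**Figure D1:**
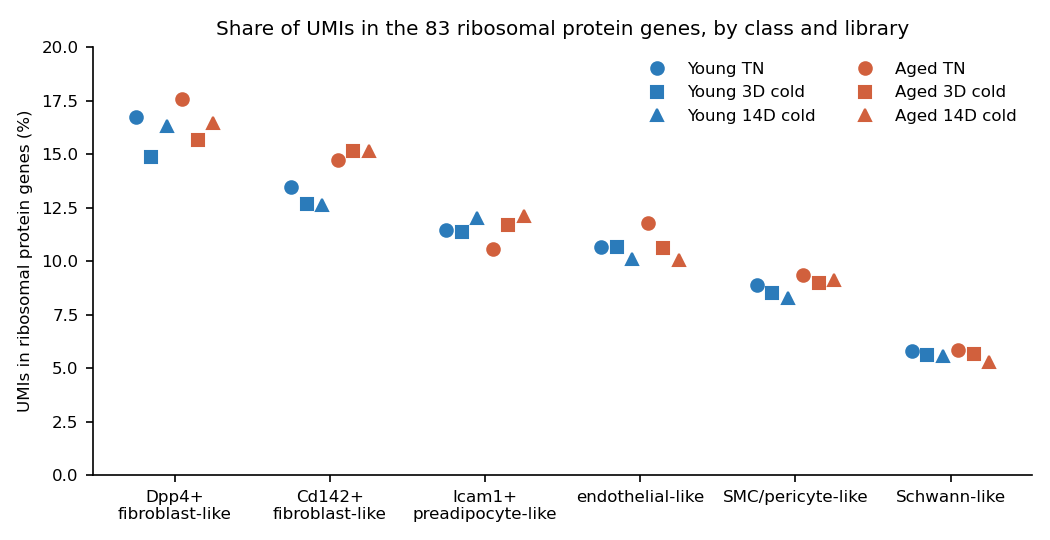
Percent of a cell class's UMIs in ribosomal protein genes (vertical axis), at 2000 UMIs per cell, with 1 point for each library and classes along the horizontal axis. The Dpp4+ points, between 14.9% and 17.6%, lie above all Icam1+ points, which end at 12.1%, and in Cd142+ fibroblast-like cells the 3 aged points lie above the 3 young points.

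The subunits shared these UMIs in a nearly constant ratio within a class. Genes of the large subunit held 54.5% to 54.8% of the member UMIs in Dpp4+ fibroblast-like cells over the 6 libraries, 54.9% to 55.4% in Icam1+ preadipocyte-like cells and 54.3% to 54.7% in Cd142+ fibroblast-like cells. The range was 54.9% to 55.3% in endothelial-like cells, 56.4% to 58.1% in SMC/pericyte-like cells and 56.9% to 59.1% in Schwann-like cells, so the large subunit's part was higher in the last 2 classes in each library. Among the members with the most UMIs over the gated cells at equal depth were Rpl13 (312612), Rps24 (287369), the stalk gene Rplp1 (278347) and Rpl41 (273318), which encodes the shortest member.

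A few members were almost silent in this tissue. The germ-cell copy Rpl10l had 2 UMIs in all, 1 each in the Icam1+ class of Young 14D cold and Aged 14D cold, and the striated-muscle copy Rpl3l had 4, of which 2 were in the Icam1+ class of Aged TN and 0 in the other 4 classes tested. Where a count was 0, the 3 counts that a 0 allows set the limit per library, as far as counting goes. Rpl39l and Rpl7l1 were the other members with few UMIs. All remaining members were well counted, and 79 of the 83 could be tested in each of the 5 classes that had enough cells, 81 in the Dpp4+ and Icam1+ classes. Members with intronless pseudogenes or near-identical copies elsewhere in the genome lose reads that map to more than 1 place, so their levels are uncertain, and differences between members in level were not tested.

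Between cell classes, tested with edgeR on UMIs summed per library and class with the library as a block, nearly the whole gene set differed in 1 direction. Dpp4+ fibroblast-like cells were higher than Icam1+ preadipocyte-like cells in 78 of 81 members and lower in 1, where 30.0% of the 11967 genes tested were higher and 30.0% lower. The median log2 difference of the members was 0.41 and that of all genes 0.01. For 60 members every Dpp4+ sum was above every Icam1+ sum, which held for 15.6% of all genes. Of the 10 genes of the dissociation response, which handling of the tissue induces, 8 were lower and 0 higher in the Dpp4+ class. Against the Icam1+ class 5 were lower and 1 higher in the Cd142+ class, 6 and 3 in the endothelial class and 5 and 1 in the SMC/pericyte class, and their part in the class differences was not tested.

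The largest difference was that of Rpl39l, a copy of the tunnel protein Rpl39 known best from the testis. It stood at 19.5, 17.9 and 24.2 CPM in young and 21.6, 20.5 and 19.4 CPM in aged Dpp4+ fibroblast-like cells, and at 9.86, 9.43 and 10.9 and 12.7, 11.2 and 14.7 CPM in Icam1+ preadipocyte-like cells, with no overlap and a log2 difference of 0.87 ± 0.098 (SE, adjusted p = 5.69e-06). Rps15, which sits near the decoding site of the small subunit, stood at 1950, 1666 and 2054 CPM in young and 2051, 1702 and 2105 CPM in aged Dpp4+ sums against 1139, 1068 and 1181 and 1049, 1154 and 1313 CPM in Icam1+ sums (0.74 ± 0.063, adjusted p = 3.99e-07). Rpl21, a large subunit protein, stood at 2919, 2609 and 3157 CPM in young and 3071, 2817 and 3008 CPM in aged Dpp4+ sums, against 1685, 1705 and 1916 and 1624, 1967 and 2014 CPM in Icam1+ sums (0.69 ± 0.065, adjusted p = 1.01e-06). The groups did not overlap in any of these genes.

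The copies of ribosomal protein genes did not all move with the genes they resemble. Rps27l, a copy of Rps27 that p53 induces, was the single member lower in the Dpp4+ class, with 242.4, 207.4 and 234.7 CPM in young and 222.7, 212.8 and 226.8 CPM in aged sums against 263.7, 234.4 and 255.3 and 225.5, 239.5 and 245.5 CPM in the Icam1+ class. It was lower in 6 of 6 libraries by a log2 difference of -0.12 ± 0.049 (adjusted p = 0.048), which was lost in 3 of the alternatives run. Rps27 itself was higher in the Dpp4+ class, by 0.41 ± 0.062 (adjusted p = 9.12e-05). In the same comparison Rpl22 was higher by 0.51 and its copy Rpl22l1, which can replace it in the ribosome, differed by -0.14 ± 0.069 (adjusted p = 0.093). Likewise Rpl7 was higher by 0.55, and Rpl7l1, which acts in the assembly of the large subunit, differed by -0.12 ± 0.077 (adjusted p = 0.20). Rpl39 and Rpl39l were both higher in the Dpp4+ class, by 0.25 and 0.87. Whether a copy's difference departs from that of its partner was not tested.

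**Figure D2:**
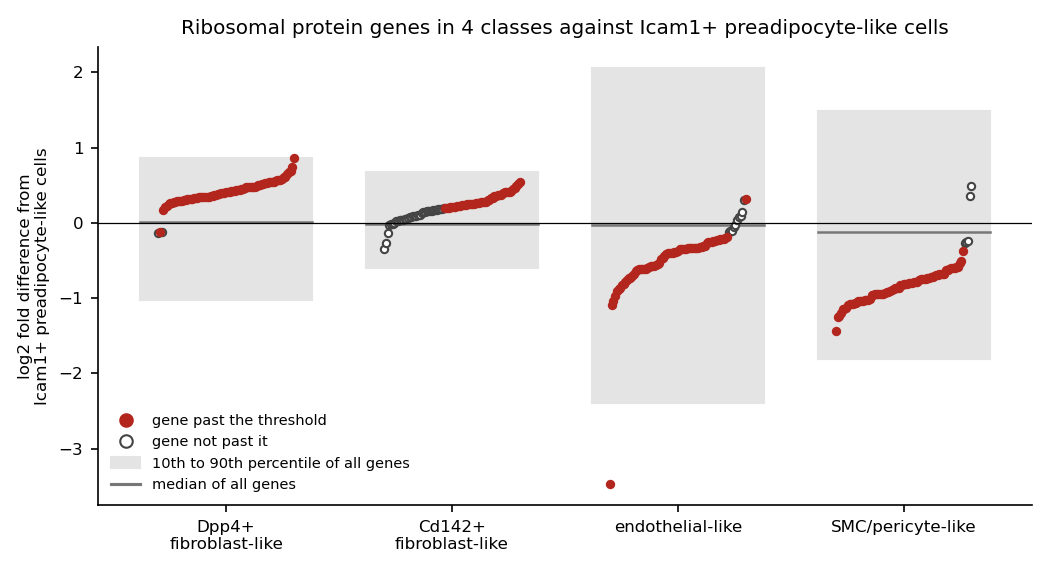
Log2 difference of each member between a cell class and Icam1+ preadipocyte-like cells (1 point for each member, filled where it passed the test). Most of the 81 points lie above 0 for Dpp4+ fibroblast-like cells and below 0 for SMC/pericyte-like cells, and grey bands span the 10th to the 90th percentile of all genes.

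Cd142+ fibroblast-like cells were above Icam1+ preadipocyte-like cells in 45 of 81 members and below in 0, where 10.0% of all genes were higher and 10.8% lower, with a member median of 0.20. Rps4x, the X-linked small subunit protein, led with 2956, 2983 and 3247 CPM in young and 3524, 3738 and 3730 CPM in aged Cd142+ sums against 2136 to 2459 and 2029 to 2598 CPM in Icam1+ sums (0.55 ± 0.065, adjusted p = 3.97e-08). Rpl30 (0.52) and Rpl39 (0.49) followed. Here the copies Rpl22l1 and Rps27l were also higher, by 0.30 and 0.23 (adjusted p = 0.000983 and 0.027).

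Endothelial-like cells were below Icam1+ preadipocyte-like cells in 70 members and above in 1, with a median of -0.38, where 36.5% of all genes were lower and 33.4% higher. In 55 members the sums did not overlap, as in 26.8% of all genes. Rpsa, which is both a ribosomal protein and the laminin receptor of the cell surface, stood at 881.2, 1038 and 960.5 CPM in young and 1112, 1106 and 1068 CPM in aged endothelial sums against 2004 to 2324 CPM in Icam1+ sums (-1.09 ± 0.077, adjusted p = 3.84e-10). Rpl12, a neighbour of the stalk base, was lower by a similar size (-1.04 ± 0.088, adjusted p = 4.71e-09). Rpl27 was the member that was higher, at 352.5 ± 47.1 CPM against 286.6 ± 51.9 CPM (SD over 6 libraries; log2 difference 0.31, adjusted p = 0.00114). Rpl39l had 1, 1 and 1 UMIs in young and 3, 2 and 0 in aged endothelial sums, at about 1 CPM against 9.43 to 14.7 CPM in the Icam1+ sums given above.

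SMC/pericyte-like cells were below the Icam1+ class in 76 of 81 members and above in 0, with a median of -0.82 against -0.12 for all genes, of which 26.4% were lower and 16.7% higher. In 76 members the sums did not overlap, as in 19.4% of all genes. Rps12 stood at 993.1, 830.8 and 1108 CPM in young and 1137, 1006 and 1060 CPM in aged SMC/pericyte sums against 2482 to 2960 CPM (-1.44 ± 0.12, adjusted p = 1.14e-22). Rps28 and Rps20, both of the small subunit, followed with -1.26 and -1.24. These sizes depend on how libraries are scaled, since the RNA make-up of the classes differs. With library totals alone the median of all genes moved to 0.34, that of the members to -0.34, and 57 members stayed lower and 2 were higher. For endothelial-like cells the same scaling moved the median of all genes to 0.27 and that of the members to -0.08, with 31 lower and 11 higher, so the direction of single members against the Icam1+ class is not settled there.

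The stalk, through which the elongation factors are recruited, followed the classes with unequal size. In Dpp4+ fibroblast-like cells Rplp0, the base of the stalk, was higher than in the Icam1+ class by 0.35, Rplp1 by 0.50 and Rplp2 by 0.37, and all passed the test. In endothelial-like cells the differences were -0.885, -0.62 and -0.23, and in SMC/pericyte-like cells -1.14, -1.07 and -0.63, again past the test. Rplp2 levels ran from 895.5 to 1192 CPM in endothelial sums and from 1148 to 1322 CPM in Icam1+ sums, and so overlapped. The genes mutated in Diamond-Blackfan anemia that were singled out, Rpl5 (0.64), Rpl11 (0.32), Rps19 (0.36) and Rps26 (0.54), were likewise higher in the Dpp4+ than in the Icam1+ class, as were Rps6 (0.45), the substrate of S6 kinase, and Rps27a (0.44), whose protein is made as a fusion with ubiquitin.

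The question set by the ages of the mice was whether the ribosomal protein genes changed with age in any class. In Dpp4+ fibroblast-like cells 0 of 81 members passed edgeR's quasi-likelihood test for age, where 12.2% of the 11248 genes did, with 3 members at an unadjusted p under 0.05 and 0 called by DESeq2. The median log2 change was 0.04 and single members ran from -0.30 to 0.17. Counts at an unadjusted p, here and below, were made over the members alone and not over all genes. In Icam1+ preadipocyte-like cells it was again 0 of 81, where 8.73% of all genes passed, with 2 at an unadjusted p under 0.05, 0 by DESeq2 and a median of -0.01. The members nearest to the threshold were Rpl7l1 in the Dpp4+ class, at 25.4, 26.1 and 24.3 CPM in young and 21.3, 20.3 and 20.2 CPM in aged libraries (-0.30, adjusted p = 0.096), and Rpl22l1 in the Icam1+ class, at 596.8, 664.7 and 731.8 CPM against 513.0, 613.1 and 625.8 CPM (-0.19, adjusted p = 0.17). Single libraries mattered to these zeros: leaving out the 14D cold library of either age gave 3 members called for age in the Dpp4+ class.

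Rpl5 and Rps6 show what the levels looked like in Dpp4+ fibroblast-like cells. Rpl5 was at 1490, 1272 and 1470 CPM in young and 1604, 1434 and 1688 CPM in aged libraries, higher in aged mice at 3 of 3 temperatures yet overlapping, with a log2 change of 0.16 ± 0.067 (adjusted p = 0.14). Rps6 was at 1057, 868.1 and 1061 against 1093, 970.6 and 1110 CPM (0.09 ± 0.067, adjusted p = 0.45), and in both genes the 3D cold library was the lowest at each age.

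In Cd142+ fibroblast-like cells some members were called for age. In 6 of 79 members tested a rise passed edgeR's test, and 0 fell, where 5.09% of the 5151 genes were called in either direction, so the count itself lay near that of other genes. The member median was 0.26, 76 members were above 0, and 48 rose and 0 fell at an unadjusted p under 0.05. No count at an unadjusted p was made over all genes. All 3 aged libraries lay above all 3 young ones in 49 members, as in 8.64% of all genes tested. The share of UMIs in members was higher in aged libraries by 2.08 percentage points, where the SD over temperatures (n = 3) was 0.48 points in young and 0.25 in aged libraries. Thinned to 1000 UMIs the difference was 1.05 points.

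The gene with the largest rise was Rpl5, which with Rpl11 and 5S RNA forms the complex that reports on ribosome assembly to p53. Its CPM were 850.9, 901.8 and 872.5 in young and 990.1, 1144 and 1342 in aged libraries, a log2 change of 0.40 ± 0.12 (adjusted p = 0.035). Rps3a1, a small subunit protein, stood at 2878, 2683 and 2884 CPM in young and 3519, 3924 and 3595 CPM in aged libraries (0.39 ± 0.11, adjusted p = 0.021). For Rps21 the values were 2631, 2340 and 1866 CPM against 3145, 3046 and 2603 CPM, which overlap at the edge, since the 14D cold library was low at both ages (0.37 ± 0.11, adjusted p = 0.028).

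The other called members were of the large subunit. Rpl7 rose from 1235 ± 64.4 CPM in young to 1596 ± 185.1 CPM in aged libraries (0.37, adjusted p = 0.047), Rpl10 from 1350 ± 91.7 to 1746 ± 206.1 CPM (0.37, adjusted p = 0.047) and Rpl30 from 2260 ± 175.5 to 2884 ± 199.9 CPM (0.35, adjusted p = 0.044; SD, n = 3). Not all members took part. Rpl41 was at 4252, 3721 and 3631 CPM in young and 3737, 3664 and 3684 CPM in aged libraries (-0.06, adjusted p = 0.87), and Rplp0 at 2427, 2104 and 2399 against 2097, 2380 and 2579 CPM (0.03, adjusted p = 0.96).

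The count of called members in the Cd142+ class depended on single choices and libraries. DESeq2 called 2 members, 0 were called at 1000 UMIs or with fixed limits on genes per cell, 26 were called unthinned, and leaving out 1 library at a time left between 0 and 3: 3 when Aged 14D cold was left out, 1 when Young 14D cold was, and 0 for each of the other 4. Depth before thinning moved with age in this class, with medians of 8531, 6610 and 6193 UMIs per cell in young and 5001, 5458 and 3998 in aged libraries. In cells that had 3000 to 8000 UMIs before thinning, a choice made after seeing the data, the share was 13.5%, 13.0% and 12.9% in young and 14.4%, 15.3% and 15.6% in aged libraries, and 2 members were called. Mitochondrially encoded RNA was 2.30%, 2.86% and 3.104% in young and 3.04%, 3.37% and 3.24% in aged libraries. The 10 markers of Dpp4+ fibroblasts summed to 1192, 1080 and 1161 CPM in young and to 417.1, 788.0 and 1105 CPM in aged Cd142+ cells. The 10 markers of the fibroblast lineage summed to 71774, 60121 and 74168 CPM in young and to 48877, 40320 and 44546 CPM in aged Cd142+ cells. In the Dpp4+ class they ran from 31888 to 41439 CPM in young and from 22741 to 26326 CPM in aged libraries.

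RNA of other cell types was low in these Cd142+ cells. Of 10 macrophage genes 6 had a UMI, summing to between 11.9 and 21.1 CPM in young and between 15.3 and 25.7 CPM in aged libraries, with C1qb, Adgre1, Mrc1 and Ctss at 0. Of 10 adipocyte genes 8 had a UMI (13.6 to 59.8 against 5.71 to 38.3 CPM), and red blood cell genes were high only in Aged TN, at 777.1 CPM against 0 to 86.4 CPM elsewhere. The part of depth, of the fibroblast lineage markers and of these RNAs in the rise was not tested.

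**Figure D3:**
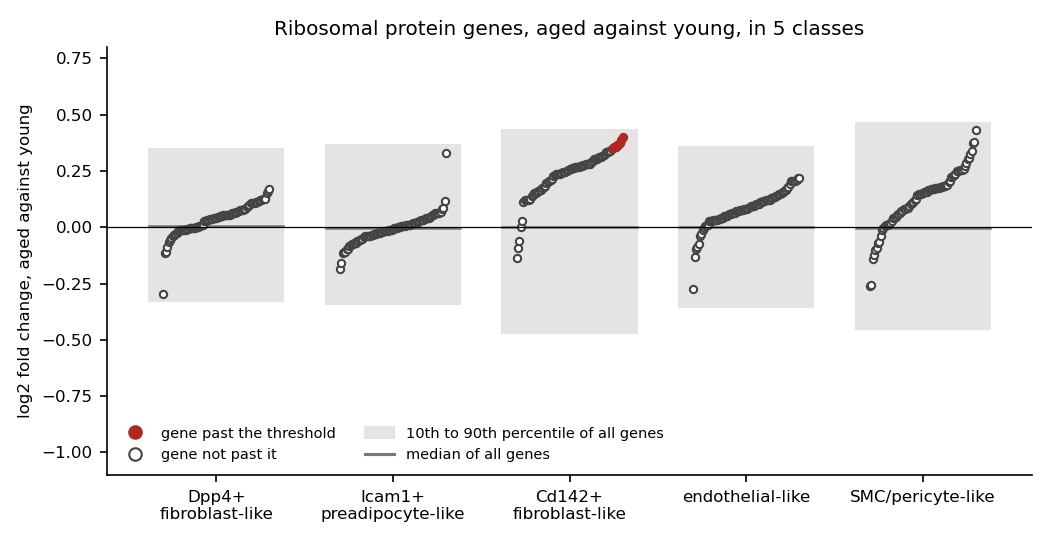
Log2 change with age of each member (1 point for each member, aged against young, filled where it passed the test) in the 5 cell classes. The points of Cd142+ fibroblast-like cells centre on 0.26 and those of the Dpp4+ and Icam1+ classes on 0.04 and -0.01, while grey bands span the 10th to the 90th percentile of all genes.

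The age change of Cd142+ fibroblast-like cells was not shown to differ from that of Icam1+ preadipocyte-like cells. The interaction of age and class had a median of 0.26 over 81 members, and 62 members had a positive difference at an unadjusted p under 0.05. That count was not made over all genes, so it has no background here. Adjusted over all genes 0 passed by edgeR, where 0.439% of genes did, and the lowest adjusted p was 0.11. DESeq2 was not run for this interaction. The interaction with the Dpp4+ class gave 0 members, also at an unadjusted p under 0.05, where 1.22% of genes were called.

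In endothelial-like cells 0 of 80 members passed for age, where 1.70% of genes did, with 10 higher and 0 lower at an unadjusted p under 0.05, a median of 0.08 and 0 called by DESeq2. In SMC/pericyte-like cells it was 0 of 79, where 1.25% of genes passed, again with 10 higher and 0 lower at an unadjusted p under 0.05, a median of 0.15 and 0 called by DESeq2. The share of UMIs in members in SMC/pericyte-like cells was nevertheless higher in each of the 3 aged libraries than in any young one, 9.13% ± 0.18 against 8.55% ± 0.32 (SD, n = 3). The ages also stood apart in cells of matched depth but overlapped at 1000 UMIs, at 4000 UMIs, unthinned, with a stricter gate, with fixed limits and without the deepest cells. In this class 5 of the 10 dissociation genes rose with age and 0 fell, their sum going from between 18773 and 23052 CPM in young to between 23606 and 32128 CPM in aged libraries, and their part in the share was not tested. Rps27, which has a zinc finger, was the member with the largest change there, at 1224, 1367 and 1107 CPM in young and 1820, 1818 and 1363 CPM in aged libraries (0.43, adjusted p = 0.13). A library held 66 to 210 such cells, and 129 to 550 with fixed limits in place of limits set by each library's spread. Mitochondrially encoded RNA of the class was 3.74% to 4.83% of UMIs as reported and 6.65% to 7.23% with fixed limits. The SMC/pericyte-like results of this report thus rest on the part of the class with less mitochondrial RNA.

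Ribosomal protein mRNAs were lower in Dpp4+ fibroblast-like cells after 3 days of cold. The share of UMIs was lower than at TN by 1.88 percentage points in young and by 1.91 in aged mice. Mitochondrially encoded RNA in this class went from 1.52% to 2.14% in young and from 1.92% to 2.45% in aged mice, and with it left out of the total the share still went from 16.99% to 15.18% and from 17.93% to 16.07%. All 81 members were below 0, with a median of -0.18 and a range from -0.35 to -0.01, and 9 fell past the test while 0 rose, where 5.0% of genes changed in either direction. For 69 members both 3D cold libraries were below both TN libraries, as for 20.2% of all genes. At an unadjusted p under 0.05, 43 fell, a count not made over all genes. DESeq2 called 9 lower.

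Among them were Rpl38, Rpl23a, Rpl39, Rpl31, Rps26, Rpl28, Rps12 and Rpl37, with log2 changes from -0.35 to -0.30. Rpl39, which lines the exit tunnel, went from 2993 CPM at TN to 2390 CPM in young and from 3167 to 2487 CPM in aged mice (-0.34, adjusted p = 0.020). Rps26, at the mRNA exit of the small subunit, went from 1866 to 1471 and from 1932 to 1552 CPM (-0.33, adjusted p = 0.020). Rps12 went from 4309 to 3506 and from 4378 to 3490 CPM (-0.31, adjusted p = 0.035). After 14 days Rps26, at 1739 and 1741 CPM, and Rps12, at 4056 and 3977 CPM, lay between these levels. The count rested on single libraries, falling to between 1 and 3 when one of the TN or 3D cold libraries was left out (3 for the TN library of either age, 2 for the young and 1 for the aged 3D cold library) and rising when a 14D cold library was, to 30 for the young and 28 for the aged one.

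The other classes gave no such call after 3 days. In Icam1+ preadipocyte-like cells 0 of 81 members passed, where 4.75% of genes did, with a median of 0.09, 2 higher and 0 lower at an unadjusted p under 0.05, and the share of UMIs changed by -0.09 points in young and 1.10 in aged mice. Cd142+ fibroblast-like cells (median -0.04, 0 at an unadjusted p under 0.05, background 0.874%), endothelial-like cells (median -0.03, 2, background 1.76%) and SMC/pericyte-like cells (median -0.08, 2, background 1.62%) also had 0 members called by edgeR, and DESeq2 called 0 in these 4 classes.

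After 14 days of cold the members that were lower had short coding sequences. In Dpp4+ fibroblast-like cells 6 of 81 members were lower than at TN and 0 higher, where 3.41% of genes changed in either direction, although the member median was only -0.03 and 11 were lower at an unadjusted p under 0.05. DESeq2 called 5 lower. The 6 were Rpl38, Rps28, Rpl35, Rps29, Rps27 and Rps21, and their coding sequences ran from 168 nt (Rps29) to 369 nt (Rpl35), against a median of 456 nt over members. In 6 of 6 both 14D cold libraries lay below both TN libraries, as in 29 of the 81 members, and no such count was made over all genes. The 6 were picked by this same comparison, so their lack of overlap adds no support of its own.

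Rpl38, a small protein of the large subunit known for its part in translating Hox mRNAs, stood at 1886, 1538 and 1381 CPM in young and 2053, 1544 and 1466 CPM in aged Dpp4+ fibroblast-like cells in the order TN, 3D cold and 14D cold. It fell by 0.47 on the log2 scale (SE 0.083, adjusted p = 0.00173) after 14 days. Rps29, a zinc-binding protein of the small subunit, stood at 3611, 3150 and 2853 and 3854, 3087 and 2632 CPM (-0.44 ± 0.088, adjusted p = 0.00450). Rps28, at the mRNA exit, stood at 2208, 1947 and 1512 and 2430, 1808 and 1871 CPM (-0.46 ± 0.094, adjusted p = 0.00580).

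In each of these genes the TN library was the highest at both ages. Rpl35, next to the mouth of the exit tunnel, stood at 728.3, 569.4 and 644.7 and 828.7, 709.2 and 489.5 CPM (-0.45 ± 0.11, adjusted p = 0.027), so the low value of the Aged 14D cold library carried much of its change. Rps27 and Rps21 were both at -0.32 (adjusted p = 0.031 and 0.032), with 2256, 2106 and 1784 and 2473, 2224 and 1997 CPM for Rps27. Leaving out Aged TN reduced the 6 calls to 2. Of the 10 dissociation genes 3 were lower and 0 higher after 14 days in this class, and their part was not tested.

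Some of these genes also passed in other classes. In endothelial-like cells 3 members passed and all were lower, where 0.989% of genes changed: Rps29, at 2831, 2713 and 2095 CPM in young and 3500, 2865 and 2213 CPM in aged libraries (-0.55 ± 0.095, adjusted p = 0.000882), Rpl35 (-0.59 ± 0.13, adjusted p = 0.016) and Rps27 (-0.43 ± 0.097, adjusted p = 0.016). Without Young TN 8 members were called, and without Aged TN 1. In Cd142+ fibroblast-like cells the member that passed was Rpl38, where 0.311% of genes did, at 1901, 1586 and 1179 CPM in young and 2072, 1810 and 1466 CPM in aged libraries (-0.59 ± 0.14, adjusted p = 0.026). This call was lost whichever library was left out and with DESeq2.

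No member passed in Icam1+ preadipocyte-like cells (background 1.79%, 23 higher and 3 lower at an unadjusted p under 0.05, 0 by DESeq2) or in SMC/pericyte-like cells (background 0.573%, 0 higher and 8 lower at an unadjusted p under 0.05, 0 by DESeq2). Still, the 6 genes, chosen by their calls in the Dpp4+ class, had a log2 change under 0 in all 5 classes. Both 14D cold libraries were below both TN libraries for 4 of them in the Icam1+ class and 5 in the Cd142+ class. In the endothelial class this held for 6 and in the SMC/pericyte class for 4. Among all members it held for 5 of 81, 11 of 79, 26 of 80 and 26 of 79 in the same order of classes. No such count was made over all genes. In the Icam1+ class, for example, Rps29 stood at 2381, 2280 and 1991 CPM in young and 2236, 2296 and 1882 CPM in aged libraries (-0.25 ± 0.11, adjusted p = 0.31). The comparisons share no cells, but each uses the same 4 libraries.

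**Figure D4:**
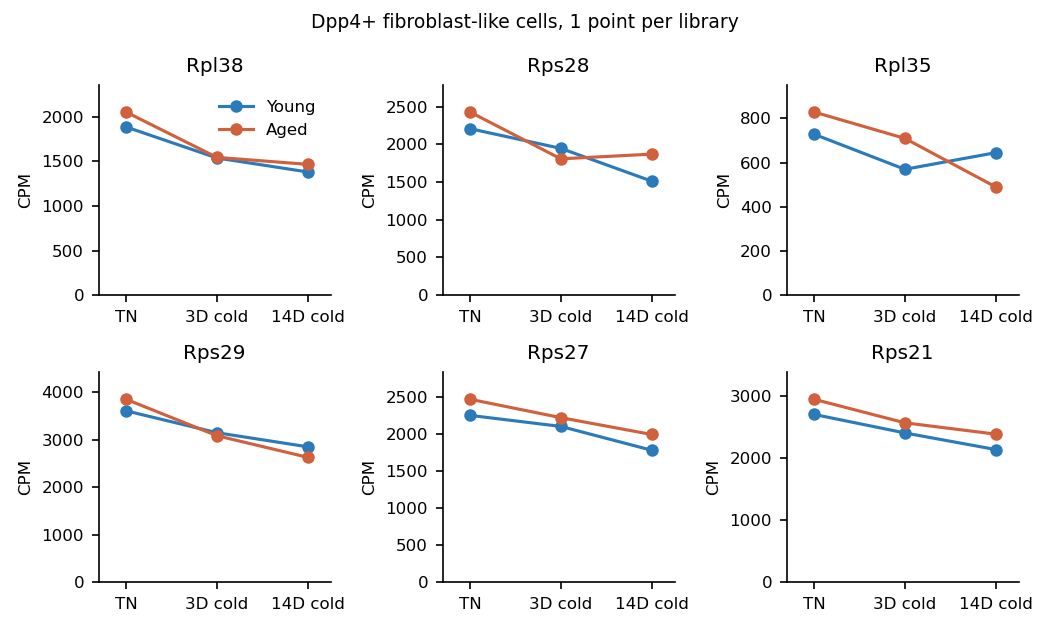
CPM in each library of the 6 members called lower after 14 days of cold in Dpp4+ fibroblast-like cells, by temperature, with lines joining the libraries of 1 age. In Rpl38 the points go from 1886 and 2053 CPM at TN to 1381 and 1466 CPM after 14 days.

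Across members the change after 14 days was lower for shorter coding sequences. Spearman's rho between the log2 change and coding length was 0.59 over 81 members in Dpp4+ fibroblast-like cells, 0.58 over 81 in Icam1+ preadipocyte-like cells, 0.59 over 79 in Cd142+ fibroblast-like cells, 0.48 over 80 in endothelial-like cells and 0.41 over 79 in SMC/pericyte-like cells. After 3 days the values were 0.36, 0.45, 0.52, 0.24 and 0.32 in the same order of classes. Members are not independent points, since each is counted in the same 4 libraries and shares their depth and capture. Over other genes of at least 100 CPM (1309 to 1843 genes) rho was between -0.10 and 0.07 in these classes after 14 days. After 3 days it was between -0.14 and 0.15.

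The 11 members with at most 300 nt of coding sequence had a median change of -0.28 in Dpp4+ fibroblast-like cells, and the 23 members above 600 nt one of 0.03, while the 80 other genes of at most 300 nt had 0.01 and the 1075 above 600 nt 0.04. Against transcript length in place of coding length rho was 0.41 in that class. Within ages, 14D cold against TN gave rho of 0.60 in young and 0.50 in aged Dpp4+ fibroblast-like cells, 0.62 and 0.44 in Icam1+ preadipocyte-like cells, 0.63 and 0.39 in Cd142+ fibroblast-like cells, 0.58 and 0.25 in endothelial-like cells and 0.34 and 0.34 in SMC/pericyte-like cells. Aged TN against Young TN gave between -0.07 and 0.14, though these libraries also differ in depth.

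The order by length had exceptions. Lengths were those of the longest annotated coding sequence among a gene's principal transcripts, and a member may also be made from a shorter one. Rpl41, at 138 nt the shortest by this measure, was at 3825, 3396 and 3455 CPM in young and 3695, 3121 and 3244 CPM in aged Dpp4+ fibroblast-like cells (-0.17 ± 0.086, adjusted p = 0.35). Rpl39, with 153 nt, was at -0.19 ± 0.084 (adjusted p = 0.25). Rpl39l, also with 153 nt, was at 0.13 (adjusted p = 0.75). Of the longer members Rpl10, with 642 nt, was at -0.28 (adjusted p = 0.12) and Rpl13a, with 609 nt, at -0.26 (adjusted p = 0.13).

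**Figure D5:**
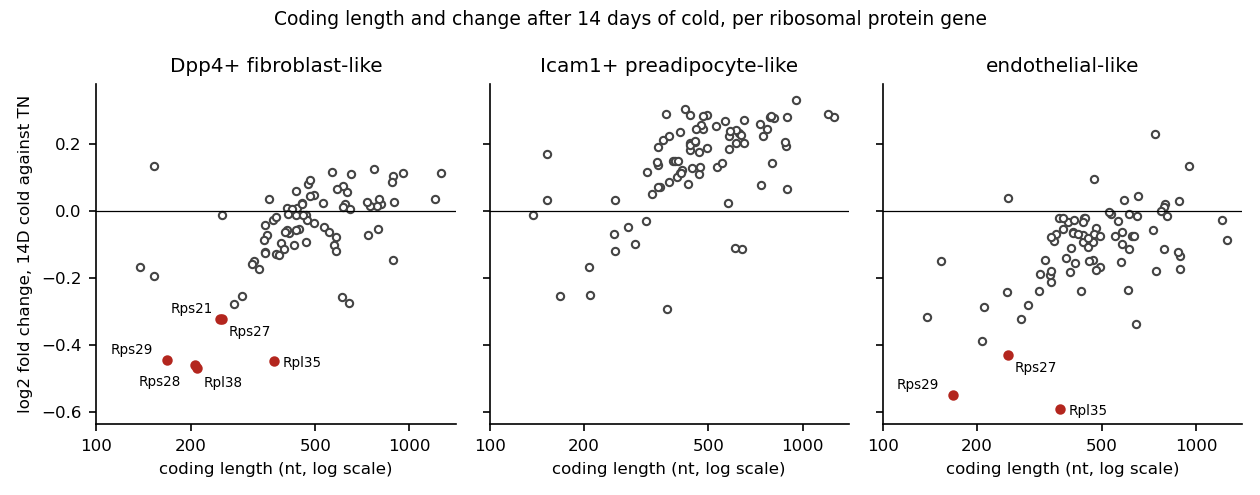
Log2 change after 14 days of cold against coding length in nt (log axis) for each member in Dpp4+ fibroblast-like, Icam1+ preadipocyte-like and endothelial-like cells. Filled and named points passed the test. In Dpp4+ fibroblast-like cells the members of at most 300 nt have a median of -0.28, with Rpl39l at 0.13 the highest of them.

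The starts of these genes are shown because the TOP tract is what the members are best known to share, and the genes that fell together after 14 days can be set beside others. Each line gives 12 bases before and 18 bases from the start site on, read 5′ to 3′ on the gene's strand from RefSeq (GRCm38.p6, the assembly of mm10), with the longest run of C and T that reaches within 10 bases of the start in capitals. RefSeq promoters were at hand for 63 of the 83 members (75 starts), and Rps29 was not among them. The windows lie at chr11:114668568-114668597 (plus strand) for Rpl38, chr2:39005114-39005143 (minus) for Rpl35, chr3:90213631-90213660 (minus) for Rps27, chr2:180257367-180257396 (plus) for Rps21 and chr17:33824545-33824574 (minus) for Rps28. For comparison, Rps6 (chr4:86857350-86857379, minus), Rpl5 (chr5:107900516-107900545, plus) and Rps3a1 (chr3:86142651-86142680, minus) were not called after 14 days of cold in any class.
Rpl38: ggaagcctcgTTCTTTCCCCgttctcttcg
Rpl35: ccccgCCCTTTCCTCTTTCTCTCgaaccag
Rps27: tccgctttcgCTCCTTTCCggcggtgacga
Rps21: cgaggacccgCCCTCCTgcccaatagtgct
Rps28: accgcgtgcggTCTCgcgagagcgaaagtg
Rps6: cggaagtcgggCCTCTTTTTCgtgacgcct
Rpl5: cacgtcgCTTgcgtgctggtggtgctacat
Rps3a1: aagCCggaagggcgaaagagcaagggtcac

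Of the 5 genes shown that fell, 4 have a run of at least 6 bases across the start, as has Rps6, and Rps28 has 4 bases. A second annotated start of Rps21, not shown, has a run of 4 bases. Rpl5 and Rps3a1, which rose with age in Cd142+ fibroblast-like cells, have no run longer than 3 and 2 bases within that distance of the start, and these lie before it. Of the other members that rose there, Rps21 has the run of 7 bases shown and Rpl10 one of 3. Members not called after 14 days had long runs too, such as Rpl7a (21 bases), Rpl27a (20) and Rpl15 (17). Whether runs differ between called and other members was not tested. Over all member starts, 39 of 75 (52.0%) had a run of at least 6 bases within 10 bases of the start, against 29.2% of 32851 starts of all genes. The motif CCGGAAG, read on either strand, was in 36.0% of the 300-base member promoters and 8.86% of all, TCTCGCG in 15 of 75 and 2.56%, and TATAAA in 9.33% and 13.6%. A match is a description of the letters and not a site of action.

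In Icam1+ preadipocyte-like cells the ribosomal share went the other way after 14 days, by 0.60 percentage points in young and 1.55 in aged mice, where Dpp4+ fibroblast-like cells differed from TN by -0.42 and -1.11. In cells of matched depth the young libraries no longer showed this, the Icam1+ share being 11.83% at TN and 11.73% after 14 days and the Dpp4+ share 16.33% and 16.37%. The member median in the Icam1+ class was 0.18, and both 14D cold libraries lay above both TN libraries in 53 of 81 members, as in 16.8% of all genes, with the lowest adjusted p at 0.16. Rplp0 was the largest of these, at 1889, 1816 and 2244 CPM in young and 1581, 1953 and 2114 CPM in aged libraries (0.33 ± 0.12, adjusted p = 0.20). Rps19, of the small subunit head, was at 1494, 1651 and 1769 against 1406, 1737 and 1767 CPM (0.29 ± 0.11, adjusted p = 0.23), the TN library being the lowest at each age.

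Among the partners of the ribosome, the translation factors and other TOP mRNAs differed between classes in the same direction as most members. Of 25 such genes, 18 were higher and 0 lower in Dpp4+ fibroblast-like than in Icam1+ preadipocyte-like cells (median 0.28), where 30.0% of all genes were higher. In SMC/pericyte-like cells 1 was higher and 16 lower (median -0.57), where 26.4% of all genes were lower, and in endothelial-like cells 5 were higher and 13 lower (median -0.24), where 33.4% were higher and 36.5% lower. With age, 3 of 25 rose and 0 fell in Cd142+ fibroblast-like cells, with a list median of 0.26 and 5.09% of all genes called. They were Eif3h, a subunit of the initiation factor that holds the small subunit, at 201.5, 198.3 and 248.8 CPM in young and 288.1, 334.7 and 301.2 CPM in aged libraries (0.51), Naca, which meets nascent chains at the exit tunnel (0.42), and Tpt1, a classical TOP mRNA, at 6066, 5966 and 6017 against 6961, 7902 and 7882 CPM (0.33). In the Dpp4+ class 1 of 25 rose and 0 fell with age, where 12.2% of all genes were called. In the Icam1+, endothelial and SMC/pericyte classes 0 of 25, 25 and 22 tested were called with age.

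The factors of ribosome biogenesis, which act in the nucleolus and do not end up in the ribosome, gave few calls with age or cold. Of 40 genes 1 rose with age in Dpp4+ fibroblast-like cells, Sbds, which frees the large subunit of an assembly factor (0.34), and 2 rose in Icam1+ preadipocyte-like cells, Sbds (0.37) and Nop58 (0.26), a protein of the complexes that methylate ribosomal RNA. Of all genes 12.2% and 8.73% were called with age in these classes. Nop58 was also the gene that rose with age in Cd142+ fibroblast-like cells (1 of 23 tested, 0.58) and in endothelial-like cells (1 of 36, 0.60). There 5.09% and 1.70% of all genes were called. In the endothelial class it stood at 148.3, 105.6 and 84.8 CPM in young and 176.7, 168.0 and 173.1 CPM in aged libraries. In SMC/pericyte-like cells 0 of 14 were called, where 1.25% of all genes were. After 3 days of cold, Nolc1 (0.49) and Nop58 (0.34) rose in the Dpp4+ class, and Rrs1 (0.74), Gnl3 (0.58) and Naf1 (0.46) rose in the Icam1+ class. In both classes 0 of the list fell, and 5.0% and 4.75% of all genes were called. The list median after 3 days was 0.17 in the Dpp4+ and 0.22 in the Icam1+ class, against -0.01 for all genes in each. It was 0.15 in the Cd142+, -0.07 in the endothelial and -0.28 in the SMC/pericyte class. A shift of the list as a whole was not tested. In the Dpp4+ class 8 of 40 were higher and 11 lower than in the Icam1+ class, where 30.0% of all genes were higher and 30.0% lower.

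A list of 24 genes joined mTORC1 and its control of TOP mRNAs with Myc, Mycn, Mxi1, Max and Mnt, of the Myc network. Of the 24, 23 were tested in the Dpp4+ and Icam1+ classes. With age 4 rose and 0 fell in the Dpp4+ class, where 12.2% of all genes were called. Among the 4 were Mxi1, of the Myc network and with the largest rise (0.53), and Deptor, an inhibitor of mTOR (0.49). Myc, a transcription factor for ribosome genes, was at 235.9, 211.8 and 199.6 CPM in young and 270.4, 293.6 and 243.2 CPM in aged libraries (0.32). In the Icam1+ class, where 8.73% of all genes were called, Deptor (0.39) and Myc (0.36) rose and Sesn3, a sensor that restrains mTORC1, fell by 0.81 on the log2 scale. Myc rose also in Cd142+ fibroblast-like cells (1 of 12 tested, 0.43), where 5.09% of all genes were called. After 3 days of cold, where 5.0% and 4.75% of all genes were called, the inhibitors Ddit4 and Sesn3 fell in both classes, Ddit4 by 0.95 in the Dpp4+ and by 0.92 in the Icam1+ class on the log2 scale, while Rps6kb1, the S6 kinase gene, rose by 0.45 and 0.42. In the Dpp4+ class Ddit4 went from 33.2 CPM at TN to 16.7 CPM in young and from 25.1 to 13.7 CPM in aged mice. Ddit4 is also known as a stress-induced gene. The genes of the dissociation response, such as Fos and Hspa1a, showed 1 of 10 lower in each of these classes after 3 days.

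The mitochondrial ribosome, a particle of its own made from nuclear genes, gave other counts. Of 77 of its 78 genes tested, 11 were higher and 22 lower in Dpp4+ fibroblast-like than in Icam1+ preadipocyte-like cells (median -0.07). Of all genes 30.0% were higher and 30.0% lower there. In SMC/pericyte-like cells 14 were higher and 3 lower (median 0.26), where 16.7% of all genes were higher and 26.4% lower. With age 0 rose and 7 fell in Icam1+ preadipocyte-like cells, a share close to the 8.73% of all genes called there, among them Mrpl54, at 60.3, 51.8 and 73.4 CPM in young and 44.9, 41.0 and 43.1 CPM in aged libraries (-0.50), and 0 rose and 2 fell in the Dpp4+ class, where 12.2% of all genes were called. In Cd142+ fibroblast-like cells 0 of 50 were called with age, with a median of -0.12, where 5.09% of all genes were called. Of the 9 pseudogenes of ribosomal proteins counted, 5 were tested in the Dpp4+ and Icam1+ classes and 0 were called with age or cold. In the Dpp4+ class 3 were higher than in the Icam1+ class, where 30.0% of all genes were.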

How the data were processed

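The authors aligned reads of the 6 libraries to mm10 with Cell Ranger and deposited UMI counts per gene and barcode, which were taken as they stand; the later filters of the study are not in them. Barcodes with over 200 genes were kept within 3 median absolute deviations of their library's median for UMIs and genes. Their mitochondrial share was held to the same limit above its median. They were gated by lists of 10 markers and thinned to 2000 UMIs (Python 3.11.15, numpy 2.4.6). No doublet caller was run. UMIs were summed per library and class and tested with edgeR 4.0.16 (R 4.3.3; quasi-likelihood F test, TMM, filterByExpr, Benjamini-Hochberg over all genes, threshold 0.05), with temperature and age as terms and 2 residual degrees of freedom. Classes were compared with the library as a block. SE is the size of the log2 change over the square root of F, and CPM are TMM-scaled within each fit. DESeq2 1.42.0 was an alternative. Tests were tested on simulated data. Single members were named by a rule of size past the threshold, with paralogs, stalk and disease genes and the most abundant members, of which some are not reported here; Rpl10 and Rpl13a at 14 days and the genes listed after 3 days of cold were named after their values were seen. Members and lists were chosen with earlier results of these data known. P-values rest on what the terms of a fit leave unexplained between sums, and on variance information that is shared across genes. With no replicate library they do not measure the spread between mice of the same age and temperature.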

Additional observations from a re-analysis of the deposited data

Results flagged for a closer look

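In these cases the direction of a cold change in the ribosomal share of UMIs was opposite between groups in every library, and the difference was not tested. In Cd142+ fibroblast-like cells the share was lower in both cold libraries than at TN in young mice and higher in both in aged mice, and the mean cold change differed by 1.27 percentage points between aged and young. After 14 days of cold the share was higher than at TN at both ages in Icam1+ preadipocyte-like cells and lower at both ages in the Dpp4+, endothelial and SMC/pericyte classes. In young cells of matched depth the Icam1+ share was 11.83% at TN and 11.73% after 14 days and the Dpp4+ share 16.33% and 16.37%, and the SMC/pericyte share was higher after 14 days in aged mice at 1000 UMIs (9.30% and 10.6%) and unthinned (9.65% and 9.89%). At 2000 UMIs the change relative to the Icam1+ class was -1.84 percentage points in Dpp4+ fibroblast-like cells, -2.22 in endothelial-like cells and -1.50 in SMC/pericyte-like cells.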

How the results depend on the processing

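The reported counts are of members called. The fit for age without its temperature term, or for cold without its age term, called 0 for age in the Cd142+ class, and 0 for 3D cold in the Dpp4+ class and for 14D cold in the Dpp4+, Cd142+ and endothelial classes. The 6 age calls of the Cd142+ class became 2 with DESeq2, with library totals alone and without the deepest cells, 3 with RLE factors and without a filter on low counts, 26 unthinned, 13 at 4000 UMIs, 0 at 1000 UMIs and with fixed cell limits, and 1 with equal cells. The 9 calls for 3D cold in the Dpp4+ class became 15 without a filter and 5 at 1000 UMIs, and the 6 for 14D cold 3 unthinned and 3 with equal cells. The 1 call for 14D cold in the Cd142+ class became 0 with DESeq2, library totals alone, unthinned, at 1000 or 4000 UMIs, with equal cells, fixed limits, a stricter gate and without the deepest cells. The 3 in the endothelial class became 6 without a filter, 1 unthinned or at 1000 UMIs, 0 at 4000 UMIs and 7 with fixed limits, and the 0 in the SMC/pericyte class 5 with fixed limits. Against the Icam1+ class, the 45 calls of the Cd142+ class became 20 with a stricter gate and the 71 of the endothelial class 42 with library totals alone. The interaction of age with the Cd142+ class gave 4 unthinned. The aged minus young share became 1.05 points in the Cd142+ class and 1.33 in the SMC/pericyte class at 1000 UMIs. Matched depth, chosen after seeing the data, gave 1 call for age in the Dpp4+ class and 2 in the Cd142+ class, 4 for 3D cold in the Dpp4+ class, for 14D cold 0 in the Cd142+, 1 in the endothelial and 1 in the SMC/pericyte class, and a share difference of 1.27 points in the SMC/pericyte class.

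With each library left out in turn, calls for age ran from 0 to 3 in the Dpp4+ class, 0 to 1 in the Icam1+ class and 0 to 3 in the Cd142+ class. For 3D cold in the Dpp4+ class they ran from 1 to 30, and for 14D cold from 2 to 6 in the Dpp4+, 0 to 2 in the Icam1+, 0 to 0 in the Cd142+ and 1 to 8 in the endothelial class, and for the interaction of the Cd142+ class from 0 to 1. The cause of these moves was not tested. Of 445 alternatives to such counts and shares 371 left them within 1.5 times or 1 SD, and of 340 for single members 87 lost the call and 0 reversed. No paired analysis was possible because each age and temperature has 1 library with no replicate number of its own; the temperature term already sets libraries of the same housing side by side.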
